A study of Mus musculus with 32 samples.

Results

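The genes described here copy DNA and supply its building blocks: the MCM helicase, the factors that license and fire replication origins, the polymerases and their clamp, the enzymes that join new strands, the makers of deoxynucleotides, and proteins that copy chromatin marks or process histone messages at the fork. They were taken from a list of 45 genes by the gene symbol of each probe set, in its current or former name. Of these, 43 were found, with 55 probe sets, among 8251 genes and 12422 probe sets on the array. Pole had no probe set, and the probe sets of Tyms are annotated to Tyms and a second gene at once, so neither is reported. Each gene was counted by its probe set of highest mean intensity in the arm, and 12 of the 43 genes had more than 1 probe set.

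All arrays were of C2C12, an established line of mouse muscle precursors that stop dividing and fuse to myotubes once growth medium is exchanged for differentiation medium. In the first arm, 20 arrays, trichostatin A (TSA), which blocks histone deacetylases, was given to one set of cells while an untreated control set ran beside it. Each set was sampled while growing (0 h) and at 4, 12, 24 and 48 h of differentiation, on 2 arrays a time. In each group of this arm at 24 and 48 h, and at none of its earlier times, an array title carries an added letter b that the titles do not explain. The arrays of 24 h are numbered 2 and 3. The second arm, 12 arrays, set cells carrying Sir2 on the pHan vector, the deacetylase whose mouse counterpart is Sirt1, against cells with pHan alone, at 12 and 36 h of differentiation and with 3 arrays per group. The title of replicate 2 of the pHan cells without Sir2 at 12 h also carries an added b. The labels give no dose or timing of TSA, and they do not say whether the pHan cells were a clone or a pool, or if replicates came from separate cultures. The p-values therefore reflect array-to-array spread alone, which may be technical. The arms were scaled separately by the authors, and no level is compared between them.

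Replication starts when the origin recognition complex, Cdc6 and Cdt1 load the ring of MCM2 to MCM7 onto DNA, a step that geminin (Gmnn) blocks by binding Cdt1. Cyclin E and Cdc7 kinase activities then recruit Cdc45 and turn the ring into a helicase, and polymerases work behind it on the sliding clamp PCNA, which is loaded by replication factor C. Most of these genes are targets of E2F transcription factors, which the retinoblastoma protein holds in check in cells that have left the cycle, as myoblasts do on their way to myotubes.

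Promoter windows of 300 bases, from 250 bases before to 50 from the start site, were available from RefSeq (GRCm38.p6) for 38 of the 43 genes. They were searched on both strands for 4 words of 8 letters that E2F is known to bind, TTTCCCGC, TTTCGCGC, TTTGCCGC and TTTGGCGC, whose matches can overlap each other. At least 1 word stood in 15 of the 38 windows, 39.5%, against 2.60% of the 27025 genes with a window and 5.09% of the 4542 tested in the TSA arm. Among the 26 windows of genes that fell in control cells by 48 h, 11 held a word, 42.3%, as did 3 of the 7 windows of genes tested there that did not pass, 42.9%. The CCAAT box, another common promoter element searched on both strands, was in 24 of the 38 windows, 63.2%, against 41.1% of all genes. A match is only a match of letters and not a shown binding site. The windows of 5 genes that fell in control cells by 48 h, 1 each from 5 roles, are shown to place the words within them, 5′ to 3′ on the strand of the gene and with the E2F words in capitals (a capital word read on the other strand appears as its reverse complement).
Mcm3 (chr1:20820263-20820562, minus strand): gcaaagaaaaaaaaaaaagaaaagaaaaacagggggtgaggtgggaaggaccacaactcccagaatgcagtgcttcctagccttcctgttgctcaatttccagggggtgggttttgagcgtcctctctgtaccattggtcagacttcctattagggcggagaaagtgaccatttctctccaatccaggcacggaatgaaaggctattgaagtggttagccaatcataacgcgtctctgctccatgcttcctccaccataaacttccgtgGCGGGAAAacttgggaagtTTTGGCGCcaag
Rfc3 (chr5:151651159-151651458, minus strand): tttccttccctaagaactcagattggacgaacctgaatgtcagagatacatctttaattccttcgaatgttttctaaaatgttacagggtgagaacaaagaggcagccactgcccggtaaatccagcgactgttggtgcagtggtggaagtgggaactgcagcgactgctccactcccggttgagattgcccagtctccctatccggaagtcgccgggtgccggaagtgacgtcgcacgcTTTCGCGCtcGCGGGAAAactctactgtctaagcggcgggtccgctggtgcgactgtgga
Pola1 (chrX:93632106-93632405, minus strand): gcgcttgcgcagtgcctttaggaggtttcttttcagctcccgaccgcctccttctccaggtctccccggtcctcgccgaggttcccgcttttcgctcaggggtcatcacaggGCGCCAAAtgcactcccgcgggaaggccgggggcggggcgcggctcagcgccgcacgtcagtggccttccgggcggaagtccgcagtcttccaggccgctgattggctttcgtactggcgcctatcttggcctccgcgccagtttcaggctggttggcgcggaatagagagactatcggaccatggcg
Lig1 (chr7:13278576-13278875, plus strand): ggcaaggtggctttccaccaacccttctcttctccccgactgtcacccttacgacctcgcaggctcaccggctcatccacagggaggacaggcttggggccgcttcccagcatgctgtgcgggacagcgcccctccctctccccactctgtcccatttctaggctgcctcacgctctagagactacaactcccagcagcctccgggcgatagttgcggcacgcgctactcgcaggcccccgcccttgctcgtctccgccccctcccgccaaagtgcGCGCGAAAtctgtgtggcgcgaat
Cdc6 (chr11:98907901-98908200, plus strand): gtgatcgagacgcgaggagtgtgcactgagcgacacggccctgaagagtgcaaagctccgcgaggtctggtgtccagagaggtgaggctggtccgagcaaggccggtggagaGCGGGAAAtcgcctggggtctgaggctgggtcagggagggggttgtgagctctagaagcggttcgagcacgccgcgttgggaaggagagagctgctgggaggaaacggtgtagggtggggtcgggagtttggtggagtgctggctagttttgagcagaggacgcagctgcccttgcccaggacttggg

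In the windows of Mcm3, Rfc3 and Lig1 the words lay close to or just past the start site, which is base 251 of each window, and in those of Pola1 and Cdc6 they lay upstream of it.

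In the TSA arm 21.1% to 24.2% of the deposited intensities of an array were at or below 0, and arrays of a group had rank correlations of 0.913 to 0.968, against 0.966 to 0.974 in the Sir2 arm. The myoblast markers Myod1, Myf5, Des, Cdh15 and Ncam1 were above 0 on all 20 arrays of the TSA arm. In the Sir2 arm 0% of the intensities of an array were at or below 0, so a value above 0 tells nothing of a marker there. The summed intensity of 6 myotube markers was highest at the last time in each of the 4 kinds of cell. Of 4 leukocyte markers in the TSA arm, Cd3e was at or below 0 on all 20 arrays, Itgam on 19, Ptprc on 15 and Cd68 on 6. Of 4 endothelial markers, Cdh5 was at or below 0 on 18, Pecam1 on 6, Tek on 2 and Kdr on 0, with 412 to 1336 for Kdr. Of the 3 bone and cartilage markers on the array, Ibsp stood at 1072 to 1806 on those 20 arrays, Col2a1 at 35.3 to 333 and Alpl at -69.7 to 147. The adipocyte markers ranged from 56.3 to 233 for Adipoq, from -21.0 to 195 for Fabp4 and from -72.9 to 493 for Lpl. Summed over the 4 endothelial markers the arrays held 725 and 963 in TSA cells against 334 and 843 in control cells at 0 h, and 758 and 1067 against 1114 and 1434 at 48 h. Sirt1, the targeted gene of the other arm, stood at 37.5, 39.9 and 48.7 in Sir2 cells against 9.48, 14.2 and 20.3 in vector cells at 12 h, with no overlap. At 36 h it stood at 35.8, 69.2 and 80.5 in Sir2 cells against 19.6, 36.9 and 39.4 in vector cells, and the groups overlapped.

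All levels are deposited intensities. Log2 changes were computed after values below 0 were set to 0 and a constant was added (137.7 for the TSA arm, 8.82 for the Sir2 arm), which draws the changes of dim genes toward 0. Where the mean of a group lay under that constant, with values below 0 taken as 0, the size of a log2 change depends on the constant. For such genes the intensities and the adjusted p alone are given, except in the closing list of flagged differences, which names them. The ± after a log2 change is its standard error. A gene rose or fell where its p, adjusted over all 7453 probe sets tested in the arm, was under 0.05. In each arm 38 of the 43 genes were bright enough to be tested: Mcm6, Cdc45, Chaf1a, Dut and Pold2 were too dim in the TSA arm, and Mcm6, Ccne2, Cdc7, Orc1 and Pole2 in the Sir2 arm. Mcm6, a helicase subunit, ranged from -149 to 119.6 over the TSA arm, and Cdc45, the helicase cofactor, was at or below 0 on 11 of the 20 arrays.

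In untreated cells most replication genes fell during differentiation, and all but 1 of the calls came at 24 and 48 h. Against 0 h, 1 of 38 genes fell and 0 rose at 4 h, where 1.05% of all 5636 genes tested fell and 1.19% rose. At 12 h no gene passed in either direction, where 3.18% of all genes fell and 2.2% rose; limma gave 1 gene an unadjusted p under 0.05. At 24 h 21 genes fell and none rose, against 6.56% of all genes lower and 6.53% higher, and at 48 h 31 fell and none rose, against 19.4% of all genes lower and 16.7% higher. The median log2 change of the 38 genes against 0 h was -0.25 at 4 h, 0.05 at 12 h, -0.83 at 24 h and -1.77 at 48 h, while that of all genes tested stayed between -0.00 and 0.02. The gene that fell at 4 h was Rpa2, a subunit of the protein that coats single-stranded DNA, with 153 and 213 in control cells at 4 h against 489.6 and 481 at 0 h (log2 change -0.96 ± 0.22, adjusted p = 0.0458). That call was lost without either array of 4 h or either array of 0 h.

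All 5 MCM genes tested were among those that fell by 48 h. Mcm5 stood at 219 and 146 at 48 h against 4034 and 3648 at 0 h (log2 change -3.64 ± 0.31, adjusted p = 1.61e-06), and Mcm2 at 705 and 592 against 2032 and 1812 (log2 change -1.39 ± 0.16, adjusted p = 2.05e-05). The arrays of the 2 times were far apart for both genes, and Mcm3, Mcm4 and Mcm7 changed by -2.52, -2.69 and -1.98. A second, dimmer probe set of Mcm5, one that its array name marks as built with relaxed design rules, went the other way: it stood at 1603 and 1901 at 48 h against 201 and 208 at 0 h (log2 change 2.46 ± 0.84, adjusted p = 0.0367). Its values within a group could differ widely, with 2645 and 256 on the arrays of TSA cells at 0 h.

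Of the licensing genes, Cdc6 and Gmnn fell deeply and Cdt1 less. Cdc6, which loads the helicase, stood at -112 and 137 at 48 h against 1028 and 1160.1 at 0 h (adjusted p = 4.41e-06). Gmnn stood at 156 and 198 against 1235 and 1246 (log2 change -2.13 ± 0.18, adjusted p = 2.14e-06), and its partner Cdt1 at 1751 and 1769 against 3503 and 3369 (log2 change -0.91 ± 0.10, adjusted p = 2.20e-05). In none of these genes did the groups overlap. The origin recognition genes did not pass, with log2 changes of -0.05 for Orc1 and 0.60 for Orc2. Of the genes of origin firing, the cyclin gene Ccne2 fell (adjusted p = 2.19e-04), and its relative Ccne1 had 709.7 and 966 against 2129 and 1617 and did not pass (log2 change -1.04 ± 0.61, adjusted p = 0.209).

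Genes of the clamp, the clamp loader and the polymerases fell. Pcna, among the brightest genes of the list, stood at 1831 and 1731 at 48 h against 11633 and 8974 at 0 h (log2 change -2.43 ± 0.14, adjusted p = 6.67e-08). All 5 loader genes fell, with log2 changes from -0.80 for Rfc2 to -1.64 for Rfc4 and, for Rfc5, -302 and 81.9 at 48 h against 1469.6 and 1314 at 0 h (adjusted p = 5.23e-05). Of 6 polymerase and primase genes 5 fell, among them the primase subunit Prim1, which had 12.3 and -93.4 against 1140.2 and 1317 (adjusted p = 4.63e-07). The catalytic subunit Pold1 did not pass (adjusted p = 0.0654). Both lagging strand genes fell, the ligase Lig1 with 199 and 149 at 48 h against 1681 and 1723 at 0 h (log2 change -2.56 ± 0.37, adjusted p = 1.42e-04) and the flap nuclease Fen1 with a log2 change of -2.50 ± 0.20. Rpa1 fell, with a log2 change of -2.13, as did Rpa2 (adjusted p = 4.04e-05), and the third subunit of that complex, Rpa3, did not pass (-0.30 ± 0.15, adjusted p = 0.143).

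All 3 nucleotide genes tested fell by 48 h. Rrm1, the large subunit of ribonucleotide reductase, stood at -7.83 and 198 at 48 h against 5447 and 4232 at 0 h (adjusted p = 3.06e-07). Its small subunit Rrm2 kept more signal, with 1116 and 1449 against 9797 and 8789 (log2 change -2.74 ± 0.16, adjusted p = 7.58e-08). Thymidine kinase, Tk1, stood at 766 and 82.2 against 4684 and 4713 (log2 change -3.44 ± 0.49, adjusted p = 1.52e-04). For all 3 genes the groups lay apart. Dut, which removes dUTP, was too dim to test.

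Several genes that copy chromatin marks at the fork fell too. Dnmt1, which copies DNA methylation, was listed at -469 and -219 at 48 h, below 0 on both arrays, against 2312 and 2140.4 at 0 h (adjusted p = 1.73e-08). No fold is given for Dnmt1 in this comparison, and its p can be too small because values below 0 were set to 0. The same holds for its p in the other comparisons of the TSA arm, since all groups of the arm share 1 estimate of the spread. Uhrf1, which guides Dnmt1 to hemimethylated DNA, stood at 312 and 364 against 3761 and 2534 (log2 change -2.77 ± 0.19, adjusted p = 2.19e-07), and Slbp, the protein that binds the end of histone messages, at 531 and 291 against 1432 and 1914 (log2 change -1.74 ± 0.23, adjusted p = 8.67e-05). The histone chaperone gene Chaf1b fell (-1.11 ± 0.33), and the mismatch repair gene Msh6 did not pass (-0.18 ± 0.42). Of the 31 calls at 48 h, 29 held with each of the 4 arrays left out in turn. At 24 h the count of 21 was 10 without control 0 h replicate 1, 12 without control 0 h replicate 2 and 13 without either array of 24 h, and it was 11 in a fit of the 0 and 24 h arrays alone. The calls of Cdc6, Dnmt1, Fen1, Mcm3, Mcm4, Mcm7, Pcna, Rpa2 and Rrm2 held with each array left out. In a measurement of whole cultures, fewer cells in S phase and less RNA of these genes per cell cannot be told apart.

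**Figure D1:**
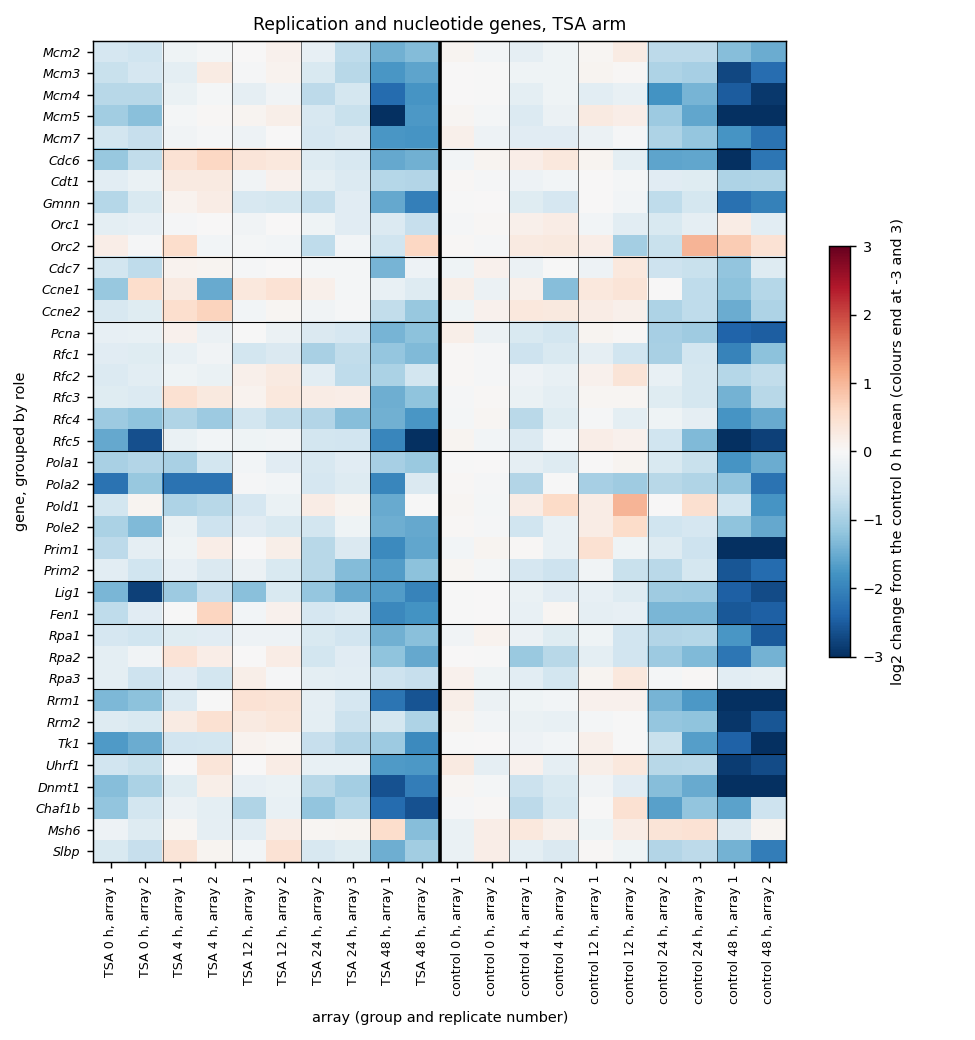
Log2 change of each of the 38 tested genes (rows, grouped by role) from its mean on the control arrays of 0 h, on each of the 20 arrays of the TSA arm (columns), with blue lower, red higher and colours that end at -3 and 3. TSA arrays at 0 h are blue for most genes where control arrays at 0 h are white, arrays of 4 and 12 h are near white in both treatments for most genes, and control arrays of 48 h are darker than TSA arrays of 48 h for most genes.

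In growth medium, cells treated with TSA had lower replication genes than control cells. Of 38 genes 16 fell and none rose, where 10.4% of all genes tested fell and 8.45% rose, and the log2 change was below 0 for 37 of them. The median was -0.56, against 0.00 for all genes. The steepest were Rfc5, a loader subunit, and Lig1. Rfc5 had 386 and 106 in TSA cells against 1469.6 and 1314 in control cells (log2 change -2.10 ± 0.40, adjusted p = 0.00246). Lig1 had 572 and 127 against 1681 and 1723 (log2 change -2.09 ± 0.37, adjusted p = 0.00146). The 2 TSA arrays differed by several times for both genes, and each lay below both control arrays.

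Of the MCM genes Mcm2, Mcm4, Mcm5 and Mcm7 fell. Mcm5 had 1792 and 1531 in TSA cells against 4034 and 3648 in control cells (log2 change -1.15 ± 0.31, adjusted p = 0.02), and Mcm2 had 1318 and 1225 against 2032 and 1812 (log2 change -0.55 ± 0.16, adjusted p = 0.0291). The dimmer probe set of Mcm5, whose values at 0 h are given above, went the other way, with both TSA arrays above both control arrays. Mcm3 did not pass by its brighter probe set (-0.59 ± 0.19, adjusted p = 0.0506), though its other probe set did (-0.97 ± 0.21, adjusted p = 0.00555). Cdc6 had 420.4 and 602 in TSA cells against 1028 and 1160.1 in control cells (log2 change -0.94 ± 0.25, adjusted p = 0.0205), and Gmnn had 624 and 863 against 1235 and 1246 (log2 change -0.66 ± 0.18, adjusted p = 0.0256). Cdt1 did not pass by its brighter probe set (-0.26 ± 0.10), and did by its other (-0.93 ± 0.30). Counted by the brighter probe set where a gene had another, the TSA arrays lay below the control arrays for these genes.

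Of the nucleotide genes, Rrm1 had 1818 and 1966 in TSA cells against 5447 and 4232 in control cells (log2 change -1.28 ± 0.31, adjusted p = 0.0125), and Tk1 had 1352 and 1578 against 4684 and 4713 (log2 change -1.60 ± 0.49, adjusted p = 0.0407). Rrm2 had 7095 and 6678 against 9797 and 8789, apart but past no threshold (log2 change -0.42 ± 0.16, adjusted p = 0.0978). Pcna, the clamp that follows the fork, had 8625 and 8715 against 11633 and 8974 and did not pass (log2 change -0.23 ± 0.14, adjusted p = 0.316). Dnmt1 had 841 and 1092 in TSA cells against 2312 and 2140.4 in control cells (log2 change -1.11 ± 0.21, adjusted p = 0.00231), and Uhrf1 had 2014 and 1899 against 3761 and 2534 (log2 change -0.62 ± 0.19, adjusted p = 0.0336). Slbp had 1172 and 976 against 1432 and 1914 and did not pass (log2 change -0.57 ± 0.23, adjusted p = 0.122).

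The polymerase gene Pola1 fell, with a log2 change of -0.92, as did the loader gene Rfc4 (-1.15). Pole2 fell as well, with 69.7 and 23.7 in TSA cells against 272 and 255 in control cells (adjusted p = 0.0018). Pola2 fell too, with -59.8 and 153 in TSA cells against 517 and 495 in control cells (adjusted p = 0.0254). No gene of the Rpa complex and none of Ccne1, Ccne2 and Cdc7 passed. Of 34 mitosis genes 34 fell in the same comparison, with a median of -1.61. The count of 16 replication genes was 8 without TSA 0 h replicate 1, 10 without TSA 0 h replicate 2, 6 without control 0 h replicate 1 and 9 without control 0 h replicate 2, and the calls of Dnmt1, Lig1, Pola1, Pole2, Rfc4 and Rfc5 held in all 4 of these fits.

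Many of these genes rose in TSA-treated cells during the first 12 h in differentiation medium. Against TSA cells at 0 h, 11 genes rose at 4 h and 20 at 12 h, and none fell at either time, where 4.01% and 9.35% of all genes rose and 2.45% and 8.53% fell. The medians of the 38 genes were 0.56 and 0.60, against -0.00 and -0.02 for all genes. Cdc6 had 420.4 and 602 at 0 h, 1516 and 1768 at 4 h and 1451 and 1398 at 12 h (log2 changes 1.47 ± 0.25 and 1.28 ± 0.25, adjusted p = 0.00463 and 0.00375). Rrm1 had 1818 and 1966 at 0 h, 3577 and 4771 at 4 h and 6508 and 6351 at 12 h, and passed at 12 h (log2 change 1.69 ± 0.31, adjusted p = 0.00268) but not at 4 h (log2 change 1.07 ± 0.31, adjusted p = 0.0693). Rfc5 had 386 and 106 at 0 h, 1198 and 1309.7 at 4 h and 1261 and 1289 at 12 h (log2 changes 1.96 ± 0.40 and 1.98 ± 0.40). All arrays of 4 and 12 h lay above those of 0 h for these 3 genes.

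At 12 h all 5 MCM genes tested had risen, with log2 changes from 0.55 for Mcm7 to 1.29 for Mcm5, and all 3 nucleotide genes, with 0.72 for Rrm2, 1.68 for Tk1 and 1.69 for Rrm1. Tk1 had 1352 and 1578 at 0 h, 3119 and 3184 at 4 h and 5093 and 4869 at 12 h. Lig1, Pola1, Dnmt1, Uhrf1 and Slbp rose as well at 12 h, with log2 changes between 0.71 and 1.22, as did Pola2 (adjusted p = 0.0321) and Pole2 (adjusted p = 0.0267). Pcna did not pass at either time (0.21 and 0.13). These counts depend on the arrays. They rest on the same TSA arrays of 0 h as the fall with TSA in growth medium, so these results are not independent. At 4 h the count of 11 was 2 without TSA 0 h replicate 1, 6 without TSA 0 h replicate 2 and 1 without TSA 4 h replicate 2, and at 12 h the count of 20 was 8 and 6 without TSA 0 h replicates 1 and 2 and 7 and 4 without TSA 12 h replicates 1 and 2, with Cdc6 and Rrm1 called in every one of these fits of 12 h. Fits of the 0 and 4 h arrays alone called no gene, and fits of the 0 and 12 h arrays alone called 11.

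At 4 h, against control cells of the same hour, a few of the genes were higher with TSA. Of 38 genes 5 rose and 1 fell, where 5.98% of all genes rose and 5.91% fell, and the median was 0.12, against -0.04 for all genes. Rpa2 had 692 and 583 in TSA cells against 153 and 213 in control cells (log2 change 1.28 ± 0.22, adjusted p = 0.00226), and this call held with any 1 array left out. Rfc3, a loader subunit, had 1140.1 and 1003 against 668 and 620.05 (log2 change 0.63 ± 0.17, adjusted p = 0.0282). Rrm2 had 11071 and 12846 in TSA cells against 8001 and 7958 in control cells (log2 change 0.57 ± 0.16, adjusted p = 0.0399). In each of the 3 the TSA arrays lay above the control arrays. Cdt1 (log2 change 0.39 ± 0.10, adjusted p = 0.0284) and Pcna (log2 change 0.47 ± 0.14, adjusted p = 0.0499) rose too. Log2 changes were above 0 for 25 of the 38 genes and below 0 for 13. Pola2 was the 1 gene called lower, against the 5 that rose. It was listed at -43.1 and -66.5 in TSA cells, at or below 0 on both arrays, against 215 and 505 in control cells (adjusted p = 0.0282), and no fold is given. As for Dnmt1, its p in this and the other comparisons of the arm can be too small. Without TSA 4 h replicates 1 and 2 in turn 2 genes rose, without either control array 1 did, with quantile normalization 3 did, and in a fit of the 4 h arrays alone none did. Of 34 mitosis genes 18 fell and 0 rose with TSA at 4 h, with a median of -0.68.

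At 12 h, against control cells, limma called 0 of 38 genes in either direction, where 2.43% of all genes rose and 1.63% fell. The unadjusted p was under 0.05 for 5 genes, and the median was -0.03. Rrm1 had 6508 and 6351 in TSA cells against 5306 and 5230.4 in control cells (log2 change 0.28 ± 0.31, adjusted p = 0.733). Mcm2 had 1920.1 and 2109 against 2003 and 2305 (log2 change -0.09 ± 0.16, adjusted p = 0.852). Tk1 had 5093 and 4869 against 5233 and 4694 (log2 change 0.01 ± 0.49, adjusted p = 0.999). The arrays of Mcm2 and Tk1 overlapped between treatments, and those of Rrm1 did not.

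**Figure D2:**
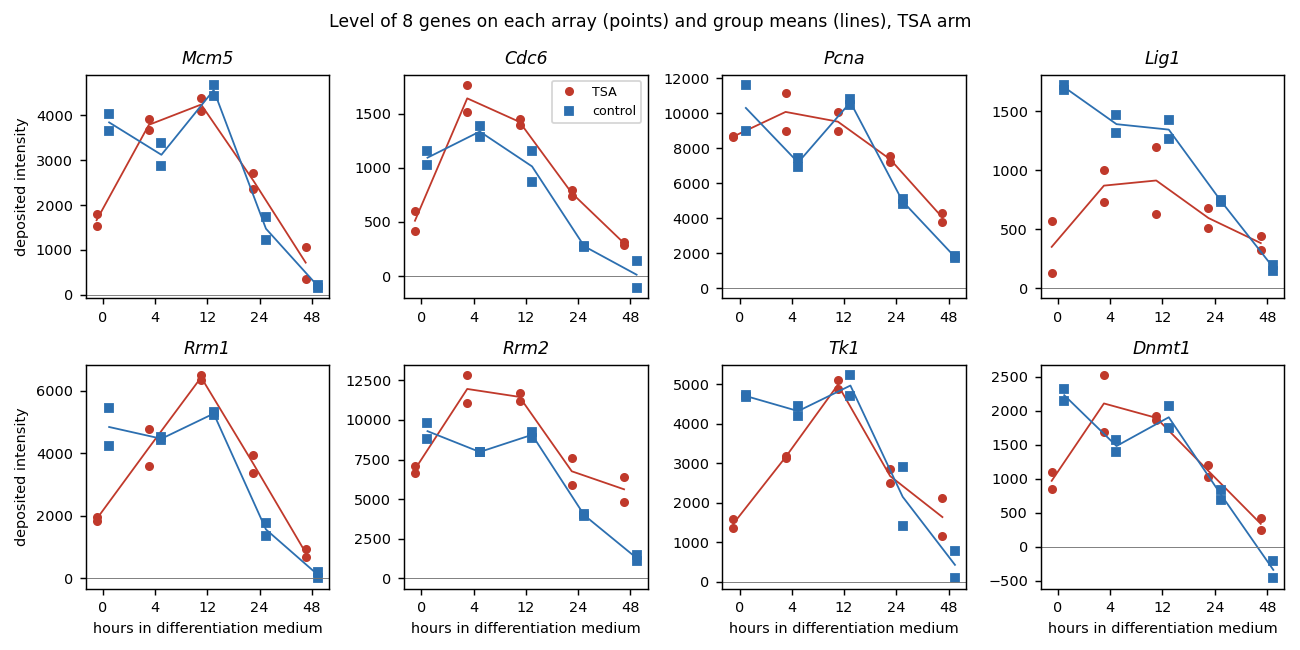
Deposited intensity of 8 genes on each array of the TSA arm, with TSA cells as circles, control cells as squares and lines through the group means, at 0, 4, 12, 24 and 48 h (times evenly spaced on the axis, which is not to scale). For Mcm5, Rrm1 and Tk1 the TSA cells start below control cells at 0 h, are close to them at 12 h and lie above them at 48 h.

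At 24 and 48 h more of the genes were higher than lower with TSA. At 24 h 9 of 38 genes rose with TSA and 1 fell, where 2.77% of all genes rose and 3.48% fell, with a median of 0.38 against -0.00 for all genes. Cdc6 had 796 and 738 in TSA cells against 271 and 279 in control cells (log2 change 1.13 ± 0.25, adjusted p = 0.0186), and Rrm1 had 3946 and 3370.3 against 1752 and 1365 (log2 change 1.17 ± 0.31, adjusted p = 0.0477). Mcm4 had 1866 and 2256 in TSA cells against 866 and 1176 in control cells (log2 change 0.93 ± 0.19, adjusted p = 0.0123). In these genes every TSA array lay above every control array. Fen1, Rrm2, Rfc3, Mcm7 and Pcna rose by log2 changes between 0.56 and 0.92, and Ccne2 rose too (adjusted p = 0.0236). Rfc4 fell, with 647 and 461 in TSA cells against 1195 and 1062 in control cells (log2 change -0.88 ± 0.19, adjusted p = 0.014). These calls rest on few arrays: the number that rose was 1 without TSA 24 h replicate 2, TSA 24 h replicate 3 or control 24 h replicate 3, 0 without control 24 h replicate 2, 0 in a fit of the 24 h arrays alone and 5 with the added constant multiplied by 0.5.

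At 48 h 15 of 38 genes rose with TSA and 1 fell, where 10.9% of all genes rose and 9.14% fell, with a median of 0.50 against -0.02 for all genes. The median of the 38 genes was 0.68 with the added constant multiplied by 0.5 and 0.36 with it multiplied by 2. All 3 nucleotide genes rose. Rrm2 had 6409 and 4836 in TSA cells against 1116 and 1449 in control cells (log2 change 2.02 ± 0.16, adjusted p = 4.99e-06). Rrm1 had 945 and 679 against -7.83 and 198 (adjusted p = 5.31e-04), and Tk1 had 2121 and 1146 against 766 and 82.2 (log2 change 1.93 ± 0.49, adjusted p = 0.0158). The treatments did not overlap, and in Rrm1 and Tk1 1 control array was close to 0.

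Pcna had 3773 and 4305 in TSA cells against 1831 and 1731 in control cells (log2 change 1.12 ± 0.14, adjusted p = 1.63e-04), and Cdc6 had 289 and 318 against -112 and 137 (adjusted p = 0.00573). Mcm5 had 359 and 1072 in TSA cells against 219 and 146 in control cells (log2 change 1.28 ± 0.31, adjusted p = 0.0108). The 2 TSA arrays of Mcm5 were far from each other, and the lower of them was still above both control arrays. Mcm3 and Mcm4 rose (0.85 and 0.66), and Mcm2, with 620.5 and 704 in TSA cells against 705 and 592 in control cells, did not pass (log2 change 0.03 ± 0.16, adjusted p = 0.927). Rpa1, Fen1 and Pola1 rose by log2 changes of 0.79, 0.63 and 0.58. Prim1 rose, with 225 and 326 in TSA cells against 12.3 and -93.4 in control cells (adjusted p = 8.25e-04), and so did Prim2, with 119 and 210.3 against -303 and 28.4 (adjusted p = 0.00891).

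Uhrf1 had 857 and 837 in TSA cells against 312 and 364 in control cells (log2 change 1.05 ± 0.19, adjusted p = 0.00171). Dnmt1 had 246 and 422 against -469 and -219 (adjusted p = 9.43e-05), with the control arrays below 0. Both TSA arrays of these partner genes were above both control arrays. Among the genes that did not pass were Gmnn, with 336 and 197 against 156 and 198, Lig1 (0.73), Slbp (0.49), Ccne1 (0.74) and others, 22 in all. Chaf1b, a subunit of the chromatin assembly factor, fell: it had 156 and 101 in TSA cells against 341 and 812 in control cells (adjusted p = 0.0124). The count of 15 was 8 without TSA 48 h replicate 2 and 12 without any other array of 48 h, and it was 0 in a fit of the 4 arrays of 48 h alone, which leaves 2 residual degrees of freedom. The calls of Cdc6, Dnmt1, Pcna, Prim1, Rrm1, Rrm2 and Uhrf1 held with each array left out.

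Most of the genes fell in TSA cells by 48 h. Against TSA cells at 0 h, 21 of 38 genes fell and none rose, where 14.6% of all genes fell and 12.8% rose, and the median was -0.64. Fen1 fell by a log2 change of -1.32 ± 0.20. Chaf1b had 156 and 101 at 48 h against 506 and 863 at 0 h (adjusted p = 0.00297). Rrm2 had 6409 and 4836 at 48 h against 7095 and 6678 at 0 h and did not pass (log2 change -0.30 ± 0.16, adjusted p = 0.211), nor did Tk1, with 2121 and 1146 against 1352 and 1578 (log2 change 0.09 ± 0.49, adjusted p = 0.921). At 24 h 4 of 38 genes were higher than at 0 h, namely Rfc5, Pole2, Rfc3 and Pola1, a share near the 9.53% of all genes that rose. None had fallen, where 7.84% of all genes fell. That count was 3 and 0 without TSA 0 h replicates 1 and 2, and 1 and 0 without TSA 24 h replicates 2 and 3. At 48 h the count of 21 was 13 in a fit of the 0 and 48 h arrays alone. Of 34 mitosis genes of TSA cells 1 fell and 2 rose at 48 h, with a median of 0.14.

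The change of the TSA effect between 0 and 48 h was tested directly, with the same arrays of 0 h as in the comparisons above. It was positive and past the threshold for 23 of 38 genes and negative for none, where 11.5% of all genes were positive and 9.56% negative, with a median of 1.12 against -0.03 for all genes. It was 3.53 ± 0.70 for Tk1 (adjusted p = 0.00339), and it also passed for Rrm1 (adjusted p = 1.76e-04). Of these calls 18 held with each of the 8 arrays left out in turn. An F test of any difference of the TSA effect among the 5 times passed for 26 of 38 genes, against 23.2% of all genes. That count was 17 without TSA 0 h replicate 2 or control 0 h replicate 2 and 14 without control 0 h replicate 1.

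**Figure D3:**
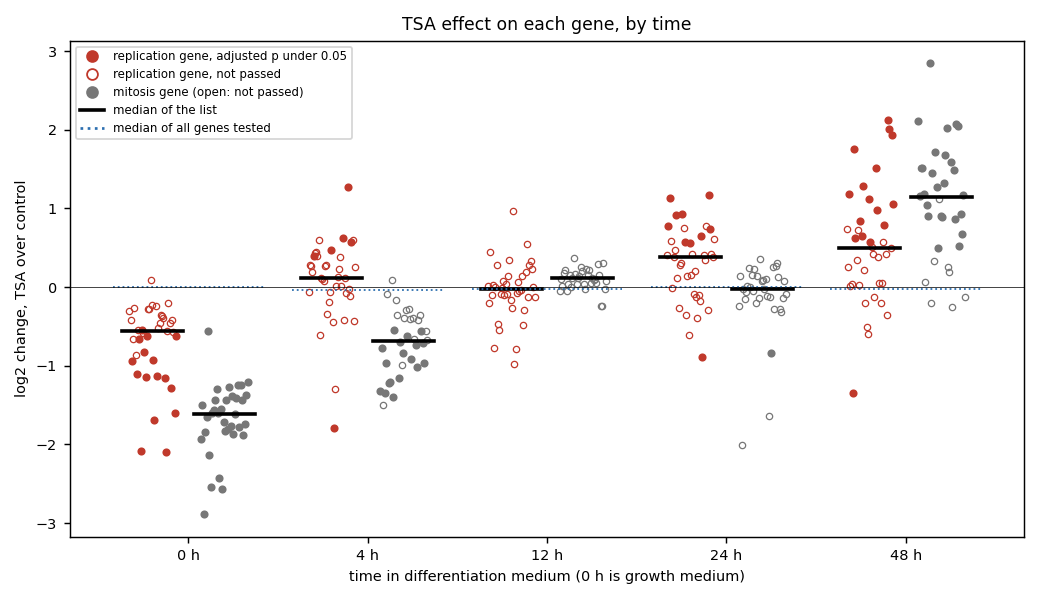
Log2 change of TSA over control cells for each of the 38 replication genes (red) and 34 mitosis genes (grey) at 0, 4, 12, 24 and 48 h, filled where the adjusted p was under 0.05, with list medians as black bars and the median of all genes tested as a dotted line. The replication genes have a median of -0.56 at 0 h, close to 0 at 4 and 12 h, and of 0.38 and 0.50 at 24 and 48 h, where the mitosis genes have -0.03 and 1.14.

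Other measures moved with the treatment. The summed intensity of 6 myotube markers at 0 h was 1278 and 1314 in TSA cells against 269.9 and 768 in control cells. That sum at 12 h was 1749 and 2035 in TSA cells against 3988 and 4296 in control cells, and at 24 h it was 16184 and 16557 in TSA cells against 28316 and 28571 in control cells. At 48 h it was 116710 and 138480 in TSA cells against 89524 and 100900 in control cells. The summed intensity of 5 myoblast markers at 0 h was 17531 and 17727 in TSA cells against 10019 and 10614 in control cells, and at 4 h 18258 and 19582 against 10133 and 10162. At 12 h it was 18926 and 19128 in TSA cells against 12002 and 13013 in control cells, and at 24 h 20979 and 24539 against 17333 and 17639, and the treatments overlapped at 48 h, with 23205 and 25274 against 24244 and 25292. Gapdh signal at its 3′ end over that at its 5′ end, a measure of RNA integrity, was 0.865 and 0.775 in TSA cells against 0.844 and 0.900 in control cells at 0 h, and 0.882 and 0.830 against 0.890 and 0.852 at 48 h, and overlapped at both times. It was lower with TSA, with no overlap, at the other times: 0.739 and 0.838 in TSA cells against 0.844 and 0.892 in control cells at 4 h, 0.781 and 0.799 against 0.824 and 0.802 at 12 h, and 0.800 and 0.841 against 0.871 and 0.944 at 24 h. The part of these measures in the results was not tested.

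In the second arm, several replication genes were higher in Sir2 cells than in vector cells at 12 h of differentiation, and 3 were lower at 36 h. At 12 h 11 of 38 genes rose and none fell, where 3.02% of all 5621 genes tested rose and 2.97% fell. The log2 change was above 0 for 36 of the 38, with a median of 0.36 against 0.01 for all genes. Uhrf1 had 501, 506 and 407 in Sir2 cells against 248, 241 and 250.02 in vector cells (log2 change 0.90 ± 0.19, adjusted p = 0.0184). Tk1 had 682, 693 and 763 against 360.3, 379 and 418 (log2 change 0.87 ± 0.13, adjusted p = 0.00221). Mcm4 had 424, 402 and 418 in Sir2 cells against 245, 250.3 and 237 in vector cells (log2 change 0.74 ± 0.12, adjusted p = 0.0027). Every Sir2 array lay above every vector array for these 3 genes.

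Of the MCM genes, Mcm3, Mcm4 and Mcm5 rose. Mcm5 had 896, 1044 and 783 in Sir2 cells against 642, 520.5 and 644 in vector cells (log2 change 0.58 ± 0.14, adjusted p = 0.0281), and Mcm2 had 342, 351 and 386 against 296, 309 and 213 and did not pass (log2 change 0.41 ± 0.16, adjusted p = 0.205). Cdt1 had 343, 363 and 348 in Sir2 cells against 263, 196 and 217 in vector cells (log2 change 0.63 ± 0.12, adjusted p = 0.0115). Gmnn, which restrains it, had 88.1, 85.2 and 87.8 against 66.0, 57.8 and 55.3, apart but not past the threshold (log2 change 0.49 ± 0.23, adjusted p = 0.301), and Cdc6 had 113, 136 and 108 against 89.8, 82.3 and 93.7, likewise (log2 change 0.39 ± 0.13, adjusted p = 0.118). Pcna had 888, 894 and 1117 in Sir2 cells against 617, 763 and 506 in vector cells (log2 change 0.62 ± 0.16, adjusted p = 0.0374), and Rfc4 rose by 0.75 ± 0.10.

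Slbp had 188, 161 and 181 in Sir2 cells against 109, 127 and 91.3 in vector cells (log2 change 0.67 ± 0.15, adjusted p = 0.0226). Fen1 and Chaf1b rose (0.52 and 0.43), and Lig1, with 217, 211 and 239.9 against 163, 170.4 and 203, did not pass (log2 change 0.31 ± 0.14, adjusted p = 0.28). The reductase genes did not pass: Rrm1 had 450.1, 459 and 562 against 457, 428 and 422 and overlapped (log2 change 0.16 ± 0.14, adjusted p = 0.609), and Rrm2 had 1014, 966 and 1069.7 against 855, 833 and 843 and did not overlap (log2 change 0.27 ± 0.11, adjusted p = 0.202). Dnmt1 had 709, 755 and 617 in Sir2 cells against 548, 535 and 610.4 in vector cells (log2 change 0.29 ± 0.11, adjusted p = 0.179), and Ccne1 had 270.4, 186 and 165 against 147, 153 and 253 (log2 change 0.17 ± 0.29, adjusted p = 0.837). Neither of these passed.

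The count of 11 was 6 without Sir2 12 h replicate 1, Sir2 12 h replicate 2 or vector 12 h replicate 1 and 3 without vector 12 h replicate 3, 7 with no filter on dim probe sets and 4 in a fit of the 12 h arrays alone. The calls of Mcm4, Rfc4 and Tk1 held with each array left out. The summed intensity of the 6 myotube markers at 12 h was 2039 to 2541 in Sir2 cells against 4765 to 5266 in vector cells, and that of the 5 myoblast markers was 2816 to 2983 against 3991 to 4080.2. The 3 adipocyte markers on the array summed to 56.5 to 75.0 in Sir2 cells against 29.0 to 55.0 in vector cells. None of these sums overlapped, and their part in the result was not tested. Of 33 mitosis genes 9 rose at 12 h, with a median of 0.43.

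At 36 h 0 replication genes rose and 3 fell with Sir2, where 6.1% of all genes rose and 3.47% fell, with a median of -0.06. Rrm2 had 399.7, 456 and 386 in Sir2 cells against 741, 686 and 623 in vector cells (log2 change -0.71 ± 0.11, adjusted p = 0.00136), and its call held with each array left out. Pola2, the second subunit of polymerase alpha, had 92.9, 90.1 and 126 against 147, 159.7 and 169.7 (log2 change -0.60 ± 0.13, adjusted p = 0.0115). Msh6 had 15.1, 33.3 and 24.5 in Sir2 cells against 62.2, 39.9 and 54.9 in vector cells (log2 change -0.90 ± 0.20, adjusted p = 0.0138). In these 3 genes the Sir2 arrays lay below the vector arrays. Uhrf1 had 80.1, 148 and 81.8 in Sir2 cells against 138, 165 and 131 in vector cells, overlapped and did not pass (log2 change -0.50 ± 0.19, adjusted p = 0.144), and Pcna had 276, 308 and 295 against 304, 329 and 379 (log2 change -0.19 ± 0.16, adjusted p = 0.49). The count of genes that fell was 1 without vector 36 h replicate 3 and 1 in a fit of the 36 h arrays alone. The myotube markers summed to 14425 to 17979 in Sir2 cells against 21801 to 22586 in vector cells at 36 h. The 3 adipocyte markers on the array summed to 96.1 to 117 against 62.2 to 68.8 and the 3 bone and cartilage markers to 55.8 to 101 against 111 to 139, and none of these 3 sums overlapped. The 3′ to 5′ Gapdh ratio was 0.796, 0.806 and 0.802 against 0.866, 0.885 and 0.824. The part of these measures in the result was not tested.

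**Figure D4:**
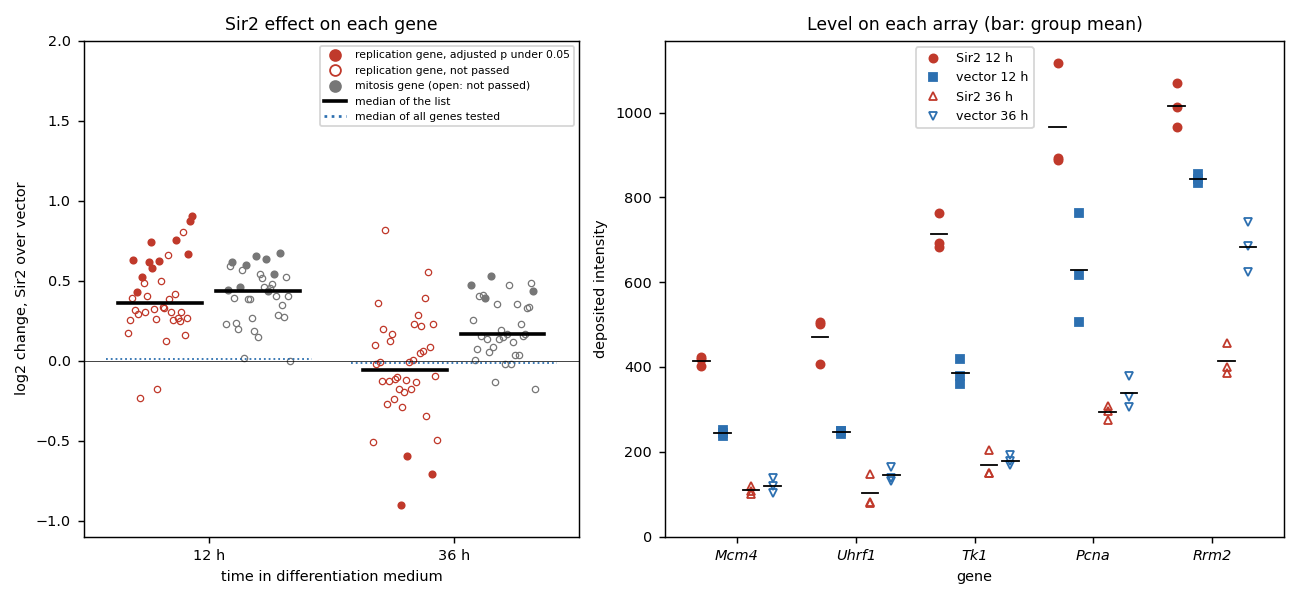
Left, log2 change of Sir2 over vector cells for each of the 38 replication genes (red) and 33 mitosis genes (grey) at 12 and 36 h, filled where the adjusted p was under 0.05, with list medians as black bars and the median of all genes as a dotted line. Right, deposited intensity of 5 genes on each array with group means as bars: at 12 h the Sir2 arrays lie above the vector arrays in all 5 genes, and at 36 h those of Rrm2 lie below.

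Most replication genes fell between 12 and 36 h in both kinds of cell. In Sir2 cells 33 of 38 genes fell and none rose at 36 h against 12 h, where 17.4% of all genes fell and 12.5% rose, with a median of -1.22. In vector cells 29 fell and 1 rose, where 20.4% of all genes fell and 12.8% rose, with a median of -0.84. Uhrf1 changed by -2.15 ± 0.19 in Sir2 cells and -0.74 ± 0.19 in vector cells, and Tk1 by -2.04 ± 0.13 and -1.07 ± 0.13. Rpa1 and Rrm1 were the steepest in vector cells (-1.45 ± 0.17 and -1.40 ± 0.14). Rrm2 changed by -1.28 ± 0.11 in Sir2 cells and by -0.30 ± 0.11 in vector cells. The gene that rose in vector cells was Msh6, with 62.2, 39.9 and 54.9 at 36 h against 25.9, 25.5 and 30.0 at 12 h (log2 change 0.75 ± 0.20, adjusted p = 0.0126). Msh6 was dim, and its vector arrays of 12 h lay under 31.1, the lowest mean tested in the arm. This call was lost without vector 36 h replicate 1. The fall of Msh6 with Sir2 at 36 h, which rests on the same vector arrays, was lost without vector 36 h replicate 1 or 3.

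The difference between the Sir2 effects of the 2 times, equal to that between the 2 changes with time, was past the threshold and negative for 7 of 38 genes and positive for none, where 0.534% of all genes were negative and 1.3% positive. Among the called genes it was largest in size, on the log2 scale, for Uhrf1 (-1.40 ± 0.27, adjusted p = 0.0287), followed by Rrm2 (-0.98 ± 0.15, adjusted p = 0.0116) and Tk1 (-0.97 ± 0.18, adjusted p = 0.0262). The other genes were Pola2, Mcm3, Mcm4 and Fen1. Of the 7 calls, that of Rrm2 alone held with each of the 12 arrays left out. The count was 1 without replicate 1 or 2 of Sir2 cells at 12 h, replicate 1 of vector cells at 12 h or replicate 3 of vector cells at 36 h. It was 2 to 4 without replicate 1 or 3 of Sir2 cells at 36 h, replicate 2 or 3 of vector cells at 12 h or replicate 1 or 2 of vector cells at 36 h, and 1 with no filter on dim probe sets and 2 with the replicate number as a block.

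Other genes of the pathway, taken from lists made for this comparison, were counted in the same way. Of 29 further fork and S phase genes, 15 fell and 3 rose in control cells at 48 h, with a median of -0.64, where 19.4% and 16.7% of all genes did. Top2a, which untangles copied DNA, changed by -3.22 ± 0.20, and Topbp1, which activates the checkpoint and origins, fell (adjusted p = 1.47e-04), while Top1, a topoisomerase of transcribed DNA, rose (1.39 ± 0.14). With TSA at 0 h 8 of them fell and none rose, where 10.4% of all genes fell, with Top2a at -1.94 ± 0.20 and the cyclin gene Ccna2 at -1.59 ± 0.33. At 48 h 4 rose with TSA, among them Top2a (1.60 ± 0.20), and 1 fell, Top1 (-0.44 ± 0.14), where 10.9% of all genes rose and 9.14% fell. The share of the list that rose was near that of all genes. With Sir2 at 12 h 2 of 26 rose, Topbp1 (0.89 ± 0.13) and Top2a (0.53 ± 0.10), where 3.02% of all genes rose.

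Of 23 further nucleotide genes, 12 fell and 2 rose in control cells at 48 h, with a median of -0.54, where 19.4% and 16.7% of all genes did. Dck, the kinase that salvages deoxycytidine, changed by -1.85 ± 0.13, and Samhd1, which breaks down deoxynucleotides, fell (adjusted p = 5.83e-06). Those that rose were Rrm2b (1.37 ± 0.30), the p53-induced reductase subunit that serves cells outside S phase, and Mthfd2 (1.14 ± 0.14), a mitochondrial folate enzyme. With TSA 4 fell and 1 rose at 0 h, where 10.4% and 8.45% of all genes did. At 48 h 2 of the 23 rose, Dck among them (1.10 ± 0.13), and 2 fell, a share near that of all genes (10.9% and 9.14%).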

How the data were processed

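One table of 12488 probe sets by 32 arrays was used, and no other file or reads. Its values are linear intensities that the authors deposited without a log. Those of the Sir2 arm were made with MAS5, per the submitters' processing notes, while for the TSA arm, whose intensities can fall below 0, no tool is given in the sources used here. The deposited scaling was kept. Control probe sets (66) were left out. Of the other 12422, 10833 carried 1 gene in the platform annotation, 396 several and 1193 none, and 10817 symbols were checked or updated through Entrez identifiers.

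Intensities below 0 were set to 0, a constant was added (the 40th percentile over the TSA arm and the 20th over the Sir2 arm), and log2 was taken. Probe sets with a mean under the 40th percentile of the arm (144.9 for TSA, 31.1 for Sir2) were left out. A linear model with 1 term per group was fitted to each arm (limma 3.58.1, R 4.3.3, 10 residual degrees of freedom for TSA, 8 for Sir2), and p-values were adjusted by Benjamini-Hochberg over its 7453 probe sets. The number of arrays limits the precision.

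Alternatives were quantile normalization, the constant multiplied by 0.5 or by 2, no filter or one at the 60th percentile, the replicate number as a block, a fit of the compared groups alone, and each array left out in turn. Replicate numbers showed no clear pairing of the arrays. Deviations of same-numbered arrays from their group means correlated over 0.1 in 12 of 74 pairs of the TSA arm and 4 of 18 of the Sir2 arm. The medians were -0.034 and 0.006, and the highest were 0.296 and 0.232. In groups of 2 arrays the deviations mirror each other, so these pairs are not separate observations. The members, the further gene lists and the tests were chosen with earlier results of these data known. Values on single arrays were given mainly for a fixed set of 16 genes, but not for each of them in every comparison. Of these, Mcm6 and Tyms could not be tested, and Tyms has no values here. Array values were also given for the 2 genes per direction with the largest called changes and no overlap, and for genes called against the majority. A few others were chosen after their values were seen. Figures were drawn with matplotlib 3.10.9.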

Additional observations from a re-analysis of the deposited data

Results flagged for a closer look

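The effect of TSA on 23 genes differed between growth medium and 48 h of differentiation by limma's test of that difference. Given as the effect at 48 h minus the effect at 0 h on the log2 scale, the difference was 3.53 for Tk1, 3.41 for Rrm1 and 2.44 for Rrm2. Of the helicase genes it was 2.43 for Mcm5, 1.48 for Mcm4, 1.43 for Mcm3 and 0.84 for Mcm7, and of the licensing genes 2.12 for Cdc6 and 1.0007 for Gmnn. Of the clamp and its loader it was 2.68 for Rfc5, 1.35 for Pcna and 1.20 for Rfc4. Among polymerase and primase genes it was 2.20 for Pola2, 2.04 for Prim1, 1.502 for Pola1, 1.44 for Prim2 and 1.01 for Pole2. It was 2.82 for Lig1, 1.18 for Fen1 and 1.34 for Rpa1. Of the chromatin genes it was 2.86 for Dnmt1, 1.68 for Uhrf1 and 1.06 for Slbp. The values of Rrm1, Cdc6, Rfc5, Pola2, Prim1, Prim2, Pole2 and Dnmt1 depend on the added constant, since the mean of a group lay below it.

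The effect of Sir2 on 7 genes differed between 36 and 12 h by the same kind of test. The effect at 36 h minus that at 12 h was -1.40 for Uhrf1, -0.98 for Rrm2, -0.97 for Tk1, -0.93 for Pola2, -0.86 for Mcm3, -0.86 for Mcm4 and -0.79 for Fen1. Groups of 2 or 3 arrays were too small to look for a single array that stands apart.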

How the results depend on the processing

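No call of a replication gene changed direction under any alternative. Counts of called genes moved by more than 1.5 times as follows, and the cause was not tested. In fits of the compared groups alone, which leave few residual degrees of freedom, the genes that rose with TSA numbered 0 at 4 h (5 with all groups in the fit), 0 at 24 h (9) and 0 at 48 h (15). Those that fell in control cells were 0 at 4 h (1) and 11 at 24 h (21). Those that rose in TSA cells against 0 h were 0 at 4 h (11), 11 at 12 h (20) and 0 at 24 h (4), and those that fell by 48 h were 13 (21). With Sir2, 4 rose at 12 h (11) and 1 fell at 36 h (3). The replicate number was also taken as a block (replicate block), although the numbers showed no clear pairing of the arrays. With it 3 rose with TSA at 4 h, 0 fell in control cells at 4 h and 1 rose in TSA cells at 24 h. In the Sir2 effect between times 2 differed (7), and no other count moved as far with the block. The 1 call in control cells at 4 h was also lost with the constant multiplied by 0.5, no filter or the 60th percentile filter, each with 0. Quantile normalization gave 3 with TSA at 4 h and moved no median of all genes by 0.1. The constant multiplied by 2 gave 1 gene at 12 h of TSA (0), and multiplied by 0.5 gave 5 at 24 h. Medians moved with the constant too. For the TSA effect at 48 h minus that at 0 h, the median was 1.29 with the constant multiplied by 0.5 and 0.95 with it multiplied by 2 (1.12). Without a filter 7 rose with Sir2 at 12 h and 1 differed in the Sir2 effect.

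With 1 array left out, the count of genes that fell with TSA at 0 h ranged from 6 to 10 and that of genes that rose from 1 to 2 at 4 h, 0 to 1 at 24 h and 8 to 12 at 48 h. Genes that fell in control cells numbered 0 at 4 h, 10 to 13 at 24 h and 29 to 31 at 48 h. In TSA cells against 0 h the ranges were 1 to 9 at 4 h, 4 to 8 at 12 h, 0 to 3 at 24 h and 14 to 19 at 48 h. The TSA effect differed between 48 and 0 h for 20 to 22 genes and among all times for 14 to 28. With Sir2 3 to 9 rose at 12 h and 1 to 4 fell at 36 h, and the Sir2 effect differed between times for 1 to 6. Where a group was left with 1 array, that array was taken to vary like the other groups. Of the 264 calls of single genes over the comparisons, 102 were lost in fits of the compared groups alone, 33 without the filter, 29 with the block, 18 with the constant multiplied by 0.5, 5 with quantile normalization and 3 with the constant multiplied by 2. Intensities near or below 0, as of Dnmt1 and Prim1 in control cells at 48 h, limit what a fold can show.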
